A study of Mus musculus with 10 samples.

Results

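Complement is the set of plasma and cell-surface proteins that tags material for removal by phagocytes and can punch pores in membranes. In the classical pathway C1q, a recognition protein built from 3 kinds of chain, binds its target and switches on the proteases C1r and C1s, which in turn use C2 to form an enzyme that cleaves the third component. Factor B serves the same step in the alternative pathway, C1 inhibitor blocks C1r and C1s, small fragments released on the way signal through receptors on myeloid cells, and CD59 stops the membrane pore from forming. In the central nervous system microglia and macrophages are the main makers of C1q, and C1q has been studied in glaucoma models as a tag on synapses of retinal ganglion cells.

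The 10 complement genes described here were C1qa, C1qb and C1qc for the C1q chains, C1ra for C1r, C2, Cfb for factor B, Serping1 for C1 inhibitor, the receptor genes C3ar1 and C5ar1, and Cd59a. They were taken by name, as every probe set whose only annotated symbol was one of the 10, which gave 14 of 20380 probe sets with a single symbol and 10 of 12393 genes. The high IOP group was 5 pools from right eyes of C57Bl/6 males aged 6 to 8 weeks, whose intraocular pressure (IOP) a cannula in the anterior chamber had held at 30 mmHg for 1 h, with collection after 3 days. The control group was 5 pools from the left eyes, which were not operated on. Both groups came from the same 10 mice, and the labels do not say whether pools of the same number hold fellow eyes. Each pool held 2 optic nerve heads, the tissue where ganglion cell axons leave the eye, and filled 1 array. The labels name no transgene or deletion, and side, cannulation and pressure could not be told apart. The comparison asks how nerve heads of cannulated right eyes, after a brief moderate rise of pressure, differed from those of unoperated left eyes.

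Array medians lay between 414 and 475 signal units. High IOP replicate 1 stood apart, with a mean correlation to the other arrays of 0.974, where theirs were at least 0.986. Its Gapdh control probe sets gave a 3'/5' signal ratio of 2.07, where the other 9 arrays gave 1.53 to 1.73. Of the 17 measured microglial markers 13 had 95% intervals of the difference within 1.5-fold. Their summed signal ran from 46163 to 54861 in high IOP pools and from 48341 to 56867 in control pools. Astrocyte markers summed to between 72687 and 82876 in high IOP pools and between 76220 and 83499 in control pools, so the glia that define the nerve head were present on all arrays. Markers of retinal photoreceptors summed to between 2646 and 13204 in high IOP pools and between 1923 and 13447 in control pools. Those of pigment cells summed to between 27400 and 43552 in high IOP pools and between 22753 and 55714 in control pools. In pooled tissue fewer cells of a type and less RNA per cell cannot be told apart.

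The promoter windows of C1qb, C1qc and C1ra are shown because C1qb and C1qc are neighbouring genes and, with C1ra, enter the relations between pools described further on. The relation of C1qb with C1qc failed the correction for multiple tests (exact permutation, adjusted p = 0.302), and that of C1ra with 3 other members rests largely on 2 pools. Each window runs from 250 bases before to 50 bases after the transcription start, in RefSeq's GRCm38.p6, and capitals mark matches on either strand to GAGGAA, the core bound by the myeloid factor PU.1, or to TTCNNNGAA, the GAS-type element of STAT factors. C1qb lies on the minus strand at chr4:136886151-136886450, C1qc on the minus strand at chr4:136892865-136893164 and C1ra on the plus strand at chr6:124512371-124512670.
C1qb: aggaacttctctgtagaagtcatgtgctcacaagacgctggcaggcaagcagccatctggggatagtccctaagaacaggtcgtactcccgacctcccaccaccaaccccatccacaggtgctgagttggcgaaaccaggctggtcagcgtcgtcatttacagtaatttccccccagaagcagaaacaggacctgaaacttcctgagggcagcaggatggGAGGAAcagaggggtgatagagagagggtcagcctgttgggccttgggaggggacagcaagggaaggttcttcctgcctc
C1qc: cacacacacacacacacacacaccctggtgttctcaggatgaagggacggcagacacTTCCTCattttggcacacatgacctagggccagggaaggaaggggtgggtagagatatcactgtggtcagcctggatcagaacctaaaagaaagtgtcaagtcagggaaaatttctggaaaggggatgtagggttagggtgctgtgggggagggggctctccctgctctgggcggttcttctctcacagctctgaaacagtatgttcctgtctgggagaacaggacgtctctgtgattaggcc
C1ra: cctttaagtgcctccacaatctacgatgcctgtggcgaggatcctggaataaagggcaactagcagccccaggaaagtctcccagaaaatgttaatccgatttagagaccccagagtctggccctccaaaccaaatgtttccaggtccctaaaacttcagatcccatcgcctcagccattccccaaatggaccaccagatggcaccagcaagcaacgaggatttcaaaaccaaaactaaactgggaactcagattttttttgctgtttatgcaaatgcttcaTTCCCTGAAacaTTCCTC
The C1qb window held the PU.1 core once, from base 221 of the 300, and the C1qc window once on the other strand, from base 58. The C1ra window held a GAS-type match from base 283 and a PU.1 core on the other strand from base 295, which did not overlap. Of 32851 such windows in the table, 28.3% held a PU.1 core and 8.3% a GAS-type match. The ISRE-type element of interferon-regulated genes, searched as 2 copies of GAAA parted by any 2 bases, was in 3.44% of all windows and in none of these 3 windows. Among the other members with a window, Cd59a held 1 ISRE-type match and 1 PU.1 core, and C3ar1 and C5ar1 held none of the 3 motifs. Windows were matched by symbol for 6 of the 10 members, and C1qa, C2, Cfb and Serping1 were not searched. A match to letters is a description and not evidence of binding.

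No difference between high IOP and control nerve heads was called for any of the 10 genes, and most intervals left room for modest changes only. Signals were compared as log2(signal + 16) with limma, a linear model that shares variance information over all genes, and a gene was called at a Benjamini-Hochberg adjusted p under 0.05. By that rule 0 of the 10 were called, where 0 of all 12393 genes were (0%). At an unadjusted p under 0.05 there were also 0 of 10, against 492 of all genes (3.97%). In 0 of the 10 were the groups separate, against 0.629% of all genes, and 5 log2 fold changes were above 0 and 5 below, against 47.3% above 0 over all genes. The median log2 fold change was 0.01 over the 10 genes and -0.01 over all genes. The lowest limma adjusted p of the 10 was 0.859, for C5ar1. Intervals at 95% lay within 1.5-fold in both directions for 8 of the 10, against 76.8% of all genes, and within 2-fold for 10 of 10, against 95.5%.

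**Figure D1:**
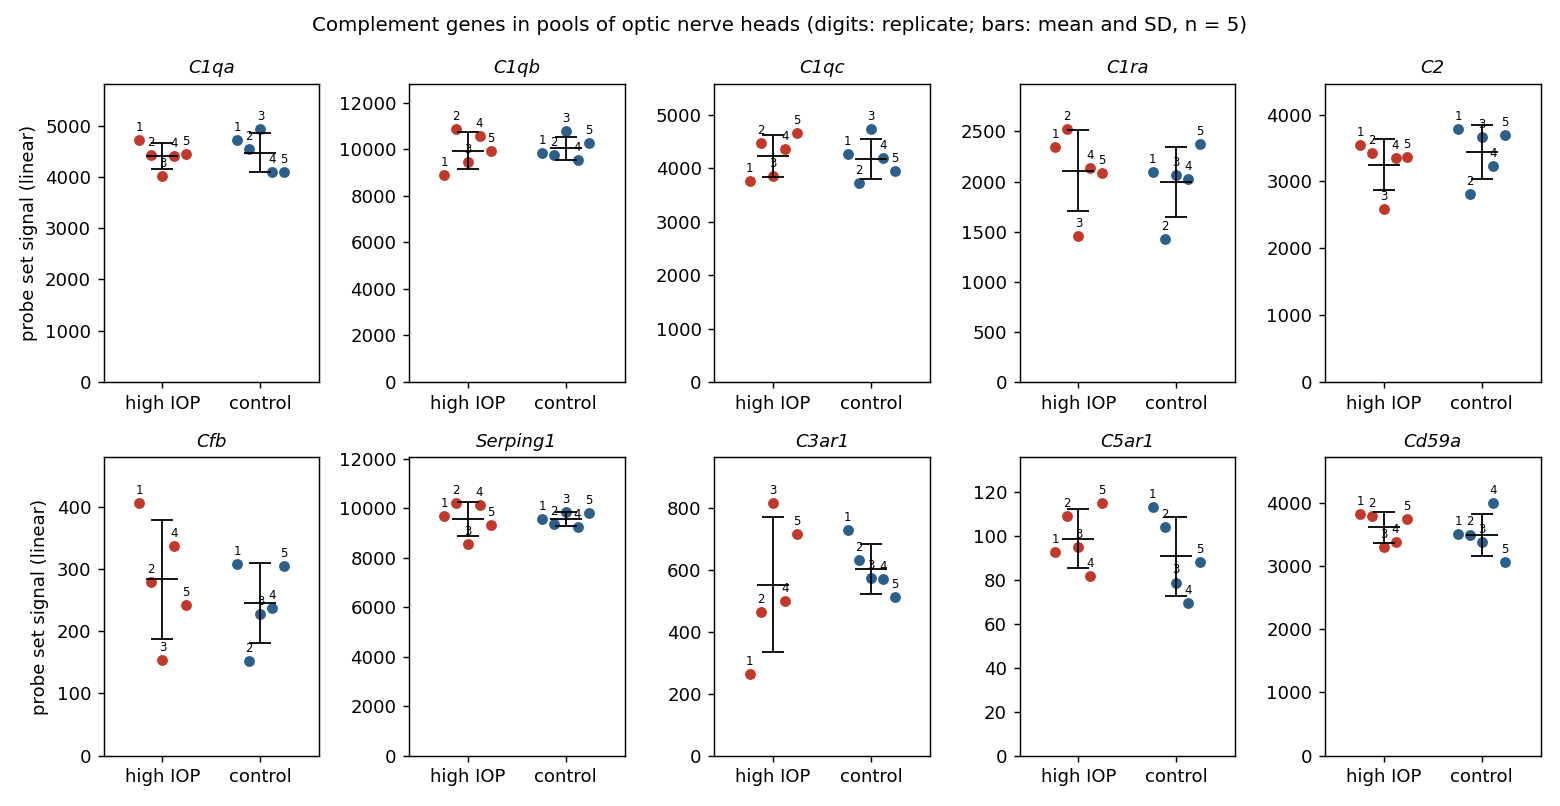
Probe set signal of the 10 complement genes on a linear axis from 0, with high IOP pools at the left and control pools at the right of each panel; points are arrays with their replicate number, and bars give the mean and SD (n = 5 each). In each panel the high IOP and control points overlap, and the points of Cfb and C3ar1 spread widely, from 151 to 406 and from 266 to 818.

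The 3 C1q chains were bright, with group means that lay within their SDs of each other. C1qa, the A chain, had 4715, 4435, 4021, 4416 and 4452 signal units in high IOP replicates 1 to 5, against 4714, 4543, 4933, 4092 and 4089 in control replicates 1 to 5. The high IOP values sat inside the control range except for replicate 3, just below it. High IOP over control gave a log2 fold change of -0.02 with a 95% interval from -0.20 to 0.16, which leaves changes between 0.871-fold and 1.12-fold.

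C1qb, the B chain, had 8886, 10863, 9457, 10562 and 9942 signal units in high IOP pools and 9849, 9762, 10768, 9524 and 10269 in control pools. High IOP replicate 1 was the lowest array and high IOP replicate 2 the highest, with the control pools between them. Its log2 fold change was -0.02, with an interval from -0.19 to 0.16. A dimmer C1qb probe set had 2913, 4949, 4020, 5375 and 5148 in high IOP pools, against 4864, 4343, 5893, 4277 and 4173 in control pools, with high IOP replicate 1 again the lowest. The 2 other probe sets of C1qb had log2 fold changes of -0.09 and -0.03. The interval of the first, the dimmer, ran from -0.47 to 0.28.

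C1qc, the C chain, had 3764, 4484, 3864, 4356 and 4672 signal units in high IOP pools and 4266, 3730, 4736, 4201 and 3956 in control pools. All 5 high IOP values lay inside the control range. Its log2 fold change was 0.02, with an interval from -0.19 to 0.22. By its brightest probe set each chain spanned little over the 10 arrays, from 1.22-fold for C1qb to 1.27-fold for C1qc. The dimmest C1qb probe set spanned more, from 2913 to 5893 signal units. SDs of the brightest probe sets within groups on the log2 scale were 0.10, 0.10 and 0.13 for C1qa, C1qb and C1qc. These were smaller than those of most genes, whose median SD was 0.21. Such values near 0 changed sign when single arrays were left out: C1qa stood at 0.01, 0.00 and 0.02 without high IOP replicate 3, control replicate 1 and control replicate 3. C1qb stood at 0.02, 0.00 and 0.01 without high IOP replicates 1 and 3 and control replicate 3. C1qc stood at -0.01 and -0.02 without high IOP replicates 2 and 5, and at -0.02 and -0.002 without control replicates 2 and 5.

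No difference was called for the classical pathway proteases either. C1ra had 2343, 2523, 1460, 2139 and 2082 signal units in high IOP pools, against 2096, 1428, 2061, 2024 and 2372 in control pools. In each group 1 pool was far below the other 4, high IOP replicate 3 and control replicate 2. The log2 fold change of C1ra was 0.07, with an interval from -0.29 to 0.44, and stood at 0.20 without high IOP replicate 3 and at -0.04 without control replicate 2. The mouse has a near copy of this gene, C1rb, so the source of this signal is uncertain, and a further probe set annotated to both genes was not used.

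C2, the protease zymogen that C1s cleaves, had 3541, 3421, 2585, 3352 and 3368 signal units in high IOP pools and 3783, 2814, 3671, 3238 and 3691 in control pools. The same pools, high IOP replicate 3 and control replicate 2, were the lowest of their groups. C2 averaged 3253 ± 381 in high IOP pools and 3439 ± 408 in control pools (SD, n = 5 each). For C2 the log2 fold change was -0.08, with an interval from -0.33 to 0.17, and 0.00 without high IOP replicate 3. C1s1, which encodes the C1s protease and adjoins C1ra in the genome, had a log2 fold change of -0.04, with an interval from -0.42 to 0.34.

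Cfb, the protease of the alternative pathway, was dimmer and had 406, 279, 153, 337 and 242 signal units in high IOP pools, against 307, 151, 228, 237 and 304 in control pools. High IOP replicate 3 and control replicate 2 again had the lowest values, which were almost equal. Its mean was 283 ± 95.5 in high IOP pools and 245 ± 64.2 in control pools (SD, n = 5 each). The log2 fold change of 0.17 had an interval from -0.38 to 0.72, which leaves changes between 0.766-fold and 1.65-fold. The value was 0.36 without high IOP replicate 3, 0.03 without high IOP replicate 1 and 0.02 without control replicate 2.

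Serping1, the inhibitor of C1r and C1s, was among the brighter genes and the steadiest of the 10. It had 9673, 10223, 8541, 10124 and 9332 signal units in high IOP pools and 9552, 9365, 9857, 9229 and 9808 in control pools. High IOP values lay on both sides of the narrow control range. Its log2 fold change was -0.00011, with an interval from -0.16 to 0.16, or 0.894-fold to 1.12-fold. The sign changed without any of several arrays, to values from 0.01 to 0.04. Over all single arrays left out the values ran from -0.02 to 0.04. Of all genes 4.7% had a smaller SD within groups than Serping1, and 8.57% a smaller one than the brightest probe set of C1qb.

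The gene of the C3a receptor, C3ar1, had the widest spread. Its brighter probe set had 266, 464, 818, 501 and 717 signal units in high IOP pools, against 729, 632, 575, 571 and 512 in control pools. The high IOP pools reached below and above all 5 control pools, with replicate 1 the lowest and replicate 3 the highest array. The SD was 218 in high IOP pools and 81.9 in control pools, around means of 553 and 604. This gave a log2 fold change of -0.21, with an interval from -0.77 to 0.35, and 0.02 without high IOP replicate 1, the array that stood apart. The other C3ar1 probe set spread less, with 387, 484, 497, 437 and 455 in high IOP pools and 516, 407, 529, 437 and 472 in control pools. Its log2 fold change was -0.06, with an interval from -0.28 to 0.16.

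C5ar1, which encodes a receptor for the chemotactic fragment of the fifth component, was the dimmest member. It had 92.8, 109, 95, 81.7 and 115 signal units in high IOP pools and 113, 104, 78.8, 69.5 and 88.1 in control pools. The groups overlapped along most of their range, and 4 of the 5 high IOP values lay within the control range. With these values the log2 fold change was 0.11, with an interval from -0.17 to 0.40. It ran from 0.04 to 0.19 with single arrays left out.

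Cd59a, the surface protein that blocks the membrane pore, had 3829, 3801, 3300, 3383 and 3748 signal units in high IOP pools and 3503, 3501, 3387, 4001 and 3069 in control pools. All 5 high IOP values lay within the control range. These gave a log2 fold change of 0.05, with an interval from -0.14 to 0.25. A second Cd59a probe set had the opposite sign, with 702, 1037, 1262, 1019 and 1107 in high IOP pools, against 1159, 1244, 1175, 1368 and 922 in control pools. Its log2 fold change was -0.21, with an interval from -0.55 to 0.14, and its lowest value was again high IOP replicate 1.

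**Figure D2:**
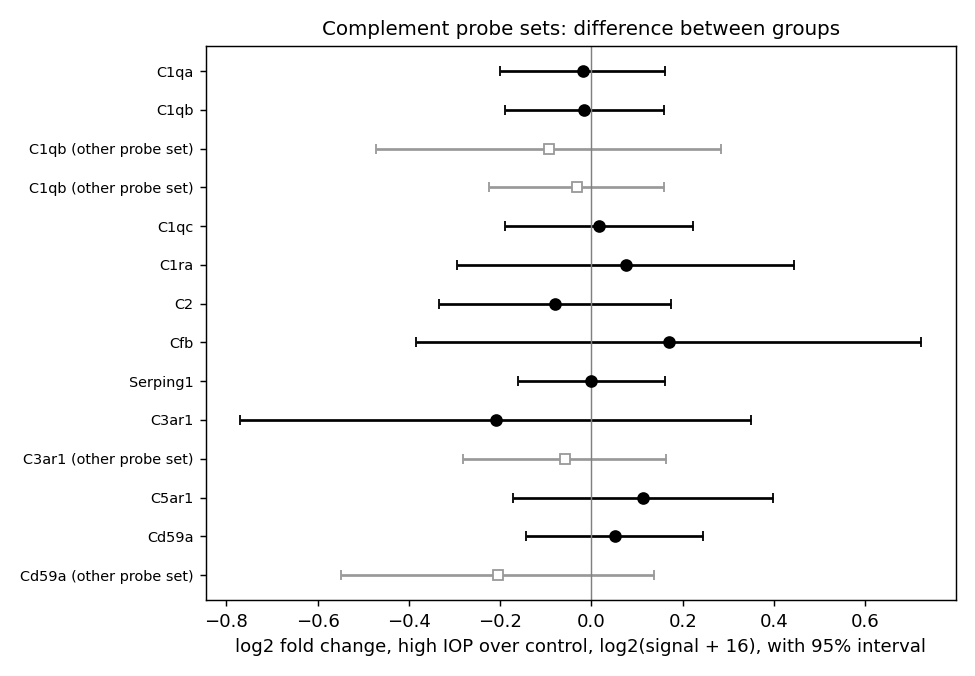
Log2 fold change of high IOP over control with its 95% interval, on the log2(signal + 16) scale, for the 14 probe sets of the 10 genes; filled circles are the brightest probe set of each gene and open squares the others. All 14 intervals include 0, and the narrowest belong to the brightest probe sets of Serping1, C1qa and C1qb. Those of Cfb and of the brightest C3ar1 probe set are the widest.

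**Figure D3:**
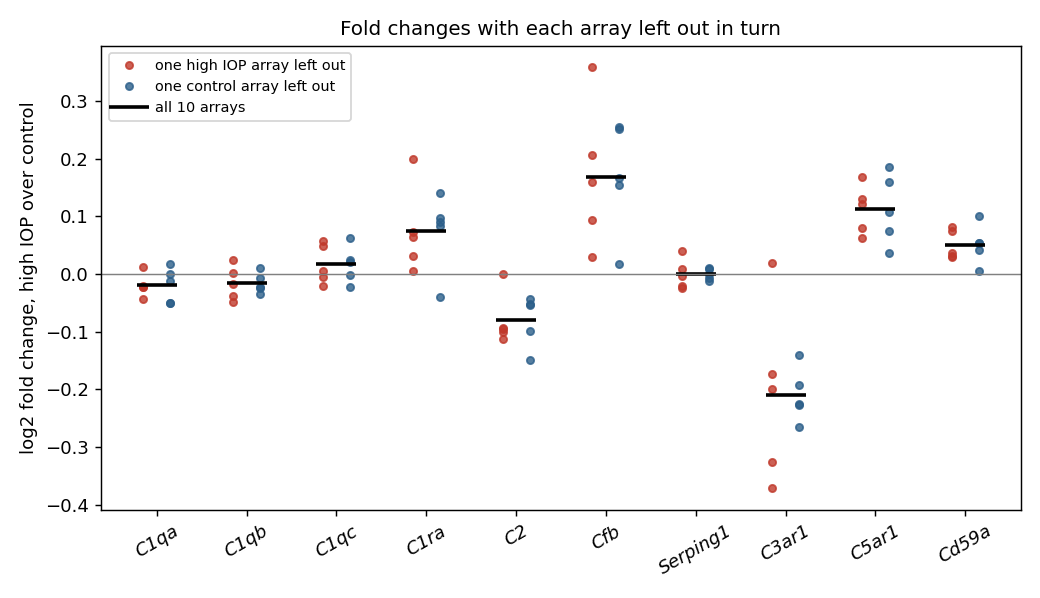
Log2 fold change of high IOP over control (vertical axis) for each gene with all 10 arrays (black bar) and with a single high IOP array (left points) or a single control array (right points) left out. The values of Cfb run from 0.02 to 0.36 and those of C3ar1 from -0.37 to 0.02, while those of the C1q chains and Serping1 stay between -0.05 and 0.06.

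Among pools of the same condition, C1ra, C2 and Cfb varied together, and Serping1 varied with them less closely. Their log2 deviations from the group mean were -0.50, -0.32, -0.76 and -0.16 in high IOP replicate 3, and -0.46, -0.28, -0.61 and -0.03 in control replicate 2. Over the 10 arrays Pearson's r of these deviations lay between 0.68 (Cfb with Serping1) and 0.93 (C1ra with C2) for the 6 pairs of these genes. For the other 39 pairs of members it lay between -0.69 and 0.70. The 4 genes were grouped after their values were seen, so the coefficients carry no test. Serping1 was lowest among control pools in control replicate 4, at -0.05. Outside the 6 pairs, Serping1 and C1qb had r = 0.64 over the 10 arrays. With high IOP replicate 3 and control replicate 2 left out, r was 0.71 for Serping1 and C1qb over 8 arrays. For the 6 pairs it lay between 0.22 and 0.56 over those 8 arrays, so their relation rests largely on these 2 pools.

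Some cell type markers were also low in these 2 pools, unevenly within each list. Of 10 perivascular macrophage markers 6 had their lowest high IOP value in high IOP replicate 3 and 8 their lowest control value in control replicate 2, but Ms4a7 had its highest high IOP value in high IOP replicate 3. They summed to 10501 in high IOP replicate 3 (10828 to 13264 in the other high IOP pools) and to 9398 in control replicate 2 (11465 to 13328 in the other control pools). The neutrophil genes S100a8 and S100a9 stood at 124 and 20.1 in high IOP replicate 3 and at 143 and 54.3 in control replicate 2, the lowest of all arrays. The other 7 measured genes of monocytes and neutrophils summed to 1677 in high IOP replicate 3, within the 1307 to 1957 of the other high IOP pools, and to 1216 in control replicate 2, below the 1294 to 2502 of the other control pools. Mpo and Elane, neutrophil granule genes, were below 50 signal units on every array. The 9 lymphocyte markers were not low there, with sums of 758 in high IOP replicate 3 (479 to 829 in the other high IOP pools) and 726 in control replicate 2 (517 to 743 in the other control pools). The score of 12 fibroblast and meningeal genes, their mean log2 deviation, was the lowest of its group in both pools. It was -0.08 in high IOP replicate 3 (-0.045 to 0.121 in the other high IOP pools) and -0.105 in control replicate 2 (-0.088 to 0.147 in the other control pools). The summed signal of these genes was not the lowest in either pool. It was 76565 in high IOP replicate 3, against 76402 in high IOP replicate 1. In control replicate 2 it was 76434, against 75831 in control replicate 4. Of the 12, 4 had their lowest and 2 their highest high IOP value in high IOP replicate 3, while 7 had their lowest in high IOP replicate 1. In control replicate 2, 5 had their lowest control value and 0 their highest. Dpt spread most, with 1485 in high IOP replicate 3 and 1999 to 4809 in the other high IOP pools. Microglial markers summed to 46163 in high IOP replicate 3 and 48341 in control replicate 2, the lowest of each group. Their score was lowest elsewhere, in high IOP replicate 1 (-0.356, against -0.111 in high IOP replicate 3) and control replicate 5 (-0.132, against 0.002 in control replicate 2). In each of high IOP replicate 3 and control replicate 2, 7 of the 17 markers were at their lowest of the group and 1 at its highest. Endothelial and vessel wall (mural) markers differed between the 2 pools. Their sums in high IOP replicate 3, 25359 and 31030, were the highest of the group. Those in control replicate 2, 16278 and 22619, were the lowest. Astrocyte and oligodendrocyte sums in high IOP replicate 3, 77144 and 63196, lay within those of the other high IOP pools. In control replicate 2 they were the highest of the group, at 83499 and 75581. Photoreceptor markers summed to 2646 in high IOP replicate 3, the lowest of the group, and to 2151 in control replicate 2, where control replicate 3 had 1923. Pigment cell markers summed to 31257, not the lowest, and to 22753, the lowest. The part of these cells in the complement values was not tested.

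C1qb and C1qc varied most with each other and with the microglial markers among the C1q chains, but no such relation passed the correction for multiple tests. C1qc and the microglial score had r = 0.87 (exact permutation p = 0.00361) and rho = 0.93 (exact permutation p = 0.00319) over 10 arrays, with permutation within groups. The score is the mean log2 deviation over 17 marker genes. After adjustment over the 33 relations computed these p were 0.119 and 0.105, so the relation failed the correction, and r was 0.80 without the 2 arrays of most extreme score, high IOP replicate 1 and control replicate 3. For C1qb and the microglial score r was 0.73 (exact permutation p = 0.0358, adjusted 0.302) and rho 0.64 (exact permutation p = 0.0828, adjusted 0.342). It was 0.41 without those 2 arrays, so it rests on them. For C1qa r was 0.22 and rho 0.25 (exact permutation p = 0.519 and 0.507, adjusted 0.816 and 0.797).

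Between chains, r was 0.70 and rho 0.77 for C1qb and C1qc (exact permutation p = 0.0451 and 0.0246, adjusted 0.302 and 0.270), and 0.58 without high IOP replicates 1 and 2. It was 0.15 for C1qa with C1qb and 0.34 for C1qa with C1qc, where rho was 0.07 and 0.20 (exact permutation p = 0.661 and 0.365 for r, 0.868 and 0.595 for rho, all adjusted p at least 0.709). In high IOP replicate 1 C1qb and C1qc were at their lowest in the group and C1qa at its highest. That array had the lowest microglial score of all, -0.36, against -0.13 to 0.25 on the other 9, with 8 of the 17 markers at their lowest high IOP value there. P2ry12 was among these, at 98.4, against 369 to 658 elsewhere, while Tmem119 and Olfml3 were at their highest of all arrays, at 2603 and 6909. High IOP replicate 3 had 7 of the 17 at their lowest high IOP value. The summed microglial signal was lower in high IOP replicate 3, at 46163, than in high IOP replicate 1, at 47303. The oligodendrocyte score was also lowest in high IOP replicate 1, at -0.83, against -0.17 to 0.39 on the other 9 arrays. The Gapdh ratio of high IOP replicate 1 was the 2.07 given above. Their part in the C1q values was not tested.

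The fibroblast and meningeal score varied with the same 4 genes, and no relation passed the correction. Dpt, the gene of this score that spread most, was lowest of each group in high IOP replicate 3 (1485) and control replicate 2 (1706). It was highest in high IOP replicate 1, at 4809, where the score was -0.045. The relations were not computed without Dpt. How far they follow this single gene rather than the list as a whole was not tested. C1ra and this score had r = 0.68 and rho = 0.77 (exact permutation p = 0.0397 and 0.00708, adjusted 0.302 and 0.117), and r was 0.50 without control replicate 5 and high IOP replicate 2. For C2 r was 0.63 and rho 0.65 (exact permutation p = 0.0472 and 0.0708, adjusted 0.302 and 0.342), and r was 0.64 without those 2 arrays. For Cfb r was 0.56 and rho 0.62 (exact permutation p = 0.0938 and 0.0597, adjusted 0.387 and 0.342), and r was 0.58 without them. For Serping1 r was 0.55 and rho 0.62 (exact permutation p = 0.0549 and 0.0376, adjusted 0.302 and 0.311), and r was 0.37 without them. Interferon-induced genes, which varied strongly between pools, gave no relation to a member that passed the correction. The highest r was that of C1qa, at 0.61, with rho 0.53 (exact permutation p = 0.0935 and 0.152, adjusted 0.387 and 0.556), and r was 0.42 without high IOP replicate 1 and control replicate 1. For Cfb r was 0.50 (exact permutation p = 0.166, adjusted 0.549) and rho 0.45 (exact permutation p = 0.204, adjusted 0.674), and r was 0.11 without the same 2 arrays. Over all 33 relations the lowest adjusted p was 0.105.

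**Figure D4:**
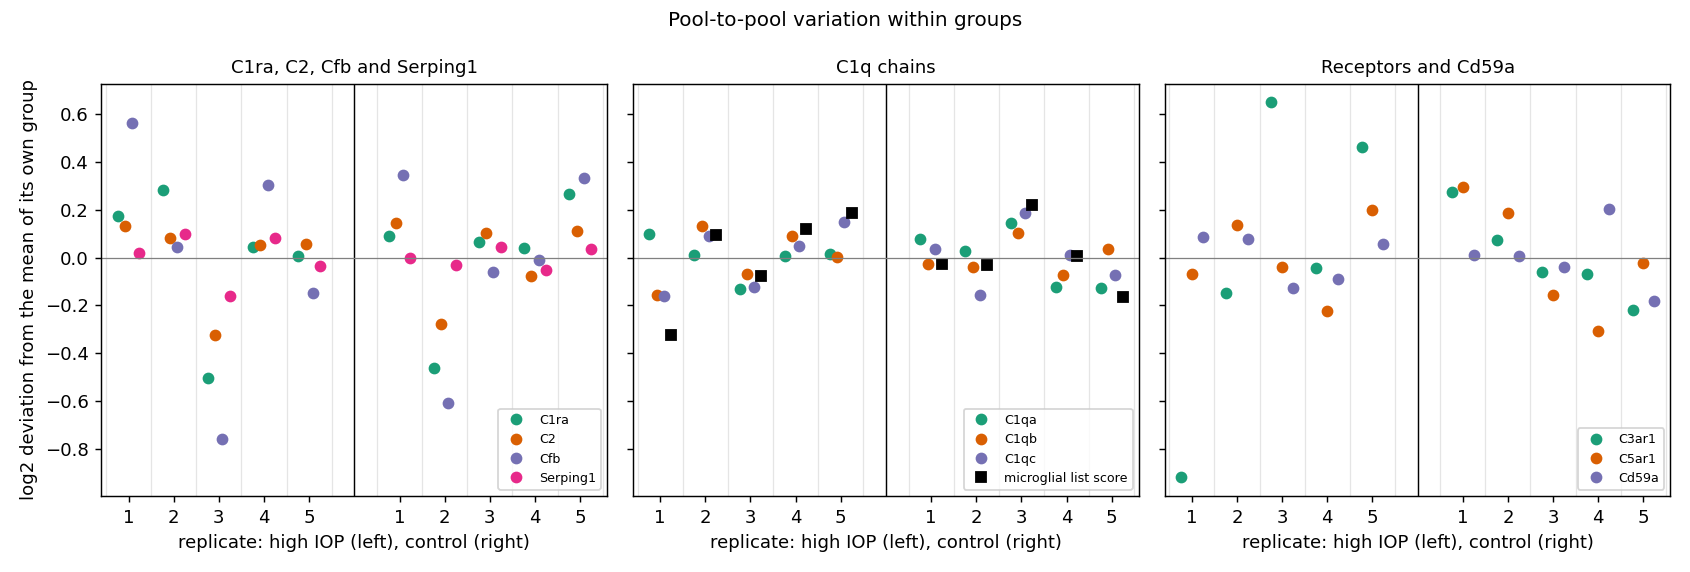
Log2 deviation of each gene from the mean of its own group (vertical axis) on each array, high IOP pools left of the black line and control pools right of it, in 3 panels; black squares are the score of 17 microglial markers. C1ra, C2 and Cfb are lowest in high IOP replicate 3 and control replicate 2, while C1qb, C1qc, C3ar1 and the microglial score are lowest among high IOP pools in replicate 1.

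The 9234 genes with a mean signal of at least 100 were searched for those that varied most like each member between pools. Those of C2 were Pld4, Fuca1 and Grn, genes of lysosomal proteins, at r = 0.958, 0.954 and 0.951 over 10 arrays. Fuca1 was also the closest to C1ra, at 0.954, followed by Pofut1 at 0.928 and Fam110a at 0.926. The closest to C1qb were Creg1 (0.954), Elovl1 (0.939) and Renbp (0.934). Those of C1qc were Zfp334 (0.946), Elp2 (0.945) and Atp5c1 (0.941), and those of C1qa Fam207a (0.911), Laptm4b (0.910) and Nedd4l (0.905).

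Cfb was most like Slc7a6 (0.957), Polr1b (0.944) and Ccdc97 (0.939), and Serping1 most like Ulk1 (0.966), Stx18 (0.959) and Pdxdc1 (0.956). C3ar1 was most like Herc4 (0.984), Dusp7 (0.974) and Lpl (0.973). By the closest gene, C5ar1 and C1qa had the loosest matches. The closest genes were Pinx1 (0.909), Golt1b (0.901) and Ubqln4 (0.896) for C5ar1 and Fxr1 (0.917), Dnttip2 (0.902) and Nt5c2 (0.900) for Cd59a. Over all genes searched the median r to the closest other gene was 0.959, so for 8 of the 10 members the closest match was looser than for a typical gene. These coefficients are descriptions over 10 arrays that share pools and scaling.

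No difference was called in the rest of the complement system. A list of 53 further complement names gave 37 measured genes, and 16 names were not analysed here. Of the 37 genes 16 had a log2 fold change above 0 and 21 below, with a median of -0.03, and 0 were called at a limma adjusted p under 0.05. At an unadjusted p under 0.05, 1 was higher in high IOP pools and 2 were lower, against 2.65% and 1.32% of all genes. The mean signal was under 100 for 19 of the 37, among them the pore components C6, C8a, C8b and C9 and the lectins Mbl1 and Mbl2.

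Itgax, the alpha chain of complement receptor 4, had 211, 279, 207, 198 and 211 signal units in high IOP pools, against 206, 193, 188, 154 and 180 in control pools, with 4 of 5 high IOP values above all control values. High IOP over control came to 0.24 on the log2 scale (SE 0.108, limma adjusted p = 0.849). Itgam, the alpha chain of complement receptor 3, was dim, with 11.8, 8.94, 12.7, 16.8 and 16.2 in high IOP pools and 23.1, 22.1, 30.4, 15.8 and 23 in control pools. High IOP over control came to -0.41 on the log2 scale (SE 0.114, limma adjusted p = 0.849), near the 16 units added before the log. Itgb2, the beta chain that both receptors share, stood at 0.16, with an interval from -0.14 to 0.46.

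Among the others with the smallest p on the higher side were Cd55b, a decay-accelerating factor gene, at 0.26, Hc, which encodes the fifth component, at 0.48, and C8b, a chain of the pore, at 0.23. Their intervals all included 0, and their mean signals in high IOP pools were 14.9, 57.9 and 71.9. On the lower side were Cpn1, a carboxypeptidase chain that inactivates the small fragments, at -0.32, C1qbp at -0.21 and C8a at -0.20. Of these Cpn1 had an interval that left out 0, from -0.58 to -0.06 (limma adjusted p = 0.849), with mean signals of 10.1 in high IOP pools and 16.5 in control pools. The bright regulators of the pore Clu and Vtn stood at -0.01 and 0.11, and the membrane regulators Cd55 and Cr1l at -0.11 and -0.03.

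**Figure D5:**
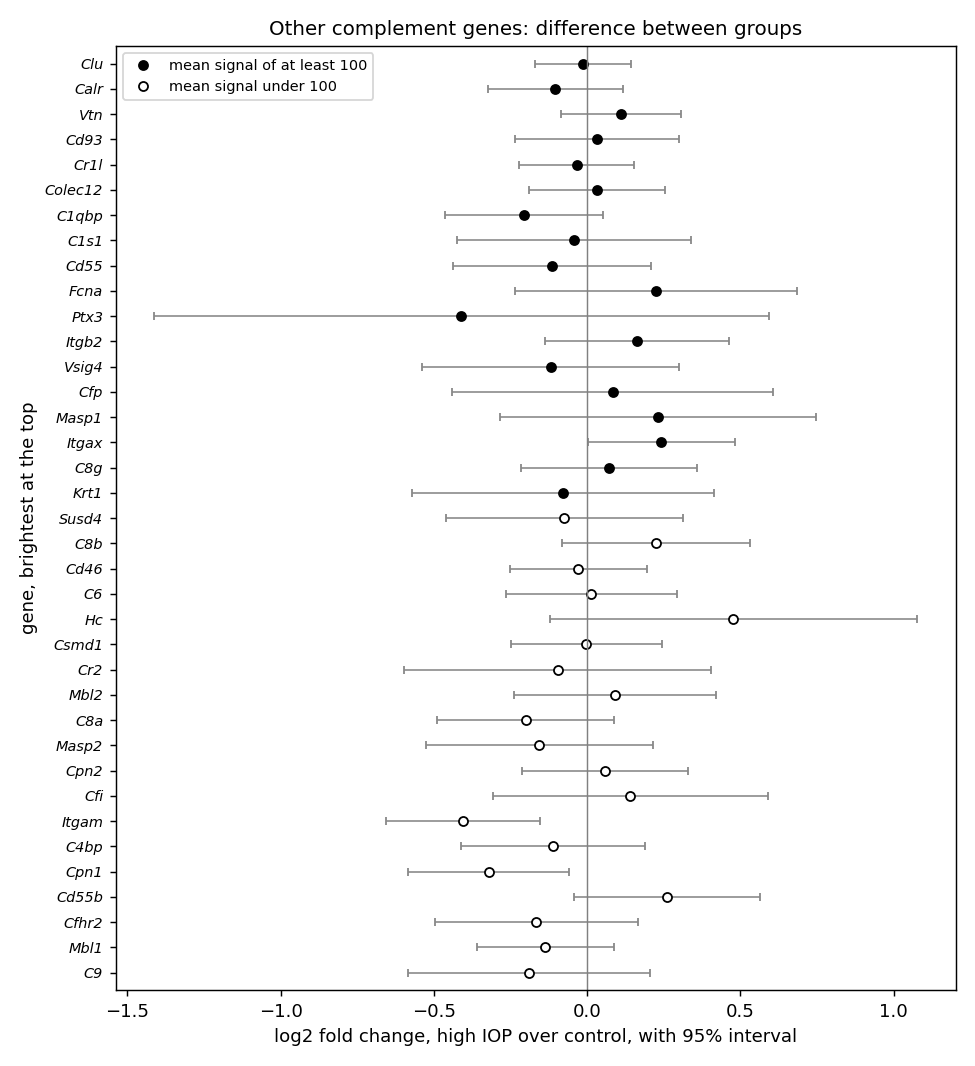
Log2 fold change of high IOP over control with its 95% interval (horizontal axis) for 37 further complement genes, ordered by mean signal with the brightest at the top; open circles mark a mean signal under 100. The intervals of 3 genes, Itgax, Itgam and Cpn1, leave out 0, and none of the 37 passed the limma test over all genes.

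Among other immune gene lists, the 6 measured MHC class II genes had a median log2 fold change of 0.27, with 5 higher. The 21 interferon-induced genes had a median of -0.24, with 20 lower. Over all genes 47.3% were above 0. In either list 0 genes were called, against 0 of all 12393 genes. Genes of a list share the same pools, so these counts are not counts of independent observations. The summed interferon-induced signal ran from 37606 to 74143 in high IOP pools and from 39706 to 80206 in control pools. The 17 microglial markers had a median of -0.05, with 6 higher and 11 lower.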

How the data were processed

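RNA from pools of 2 optic nerve heads was measured on 10 arrays, 5 per group. A column kit gave the total RNA, which was amplified to cDNA and biotin-labelled, per the labels' protocols. The authors deposited probe set intensity on a linear scale, from 0.69 to 20168, for 22690 probe sets. How probes were summarised, background-corrected and normalized is not stated in the sources used here, and no detection calls were used. The number of arrays limits the precision. The labels call the pools biological replicates.

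Tests used log2(signal + 16), which understates changes of dim genes. Of 22626 probe sets other than 64 controls, the platform annotation gave 20380 a single symbol and 691 more than 1, and left 1555 unnamed. Each of 12393 genes was represented by its brightest probe set (highest mean log2 value over the 10 arrays). Groups were compared with limma 3.58.1 (R 4.3.3), high IOP minus control, without covariates, adjusted by Benjamini-Hochberg over all genes and called under 0.05. The test was also run on simulated arrays, whose noise was normal and independent between genes. They lack the variation that genes of the same pool share, so they cannot show how the test behaves under it. Relations across arrays used deviations from group means and all 14400 permutations within groups, two-sided. Tables, permutations and plots were made in Python 3.11.15 with pandas 2.3.3, NumPy 2.4.6, Matplotlib 3.10.9 and SciPy 1.17.1.

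The members, lists and tests were chosen with earlier results of these data known. The text names all 10 members, the 4 other complement genes of lowest p above 0 and the 4 below 0, and the 3 genes most like each member. Other genes beside these, such as Itgb2, Clu, Vtn and C1s1, were named for their role after their values were seen. Alternatives changed the scaling (equal array medians, quantile normalization), the choice of probe sets, the filter on dim genes, the pseudocount (1 and 64), the variance model (trended and robust, or array weights), the block (replicate number, fixed or random) and the covariates (marker scores), and left out arrays. The Gapdh ratio as a covariate and the joint loss of high IOP replicate 3 and control replicate 2 were added after seeing the data.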

Additional observations from a re-analysis of the deposited data

Results flagged for a closer look

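C2 in high IOP replicate 3, at 2585 signal units, lay apart from the other 4 high IOP pools, which ran from 3352 to 3541. The gap to the nearest of them was 0.826 of the range of the group on the log2(signal + 16) scale. It was the only such value in 20 groups of 5 values examined, where chance gives about 1 in 20.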

How the results depend on the processing

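Over 33 alternative settings, 0 of 327 values of single members passed a limma adjusted p under 0.05, and the counts of called genes and called members were 0 in each setting, also at an adjusted p under 0.1. At an unadjusted p under 0.05 the count of genes was 492. The median log2 fold change of the 10 members ran from -0.04 to 0.06 and that of the other complement genes from -0.06 to 0.01. The sign changed in 48 of 327 cases, and the cause was not tested. Serping1, C1qb, C1qa and C1qc, whose values lay nearest 0, had 12, 10, 8 and 7 of these, and the others were 3 each of C1ra and C3ar1, 2 each of C2 and Cd59a and 1 of Cfb. With quantile normalization C1qa, C1qb and Serping1 stood at 0.018, 0.022 and 0.037, and with equal array medians at 0.008, 0.012 and 0.027. The mean over probe sets gave Cd59a -0.077. With array weights C1qb and Serping1 stood at 0.009 and 0.003, and with the microglial score as a covariate at 0.011 and 0.006. The interferon score as a covariate gave C1qa 0.025 and Serping1 0.007, and the photoreceptor score gave C1qc -0.001. With the Gapdh ratio as a covariate C1qb, C1ra, Cfb and C3ar1 stood at 0.036, -0.006, -0.104 and 0.169. Without both high IOP replicate 3 and control replicate 2, C1qa and Serping1 stood at 0.020 and 0.033. With an array or a replicate number left out, the ranges were -0.055 to 0.049 for C1qa, -0.058 to 0.027 for C1qb, -0.045 to 0.094 for C1qc, -0.11 to 0.216 for C1ra, -0.17 to 0.026 for C2 and 0.007 to 0.359 for Cfb. They were -0.033 to 0.051 for Serping1, -0.387 to 0.088 for C3ar1, 0.036 to 0.203 for C5ar1 and -0.008 to 0.124 for Cd59a. The replicate numbers were not taken as pairs, since the labels do not say that they pair the pools. Deviations of same-numbered arrays had r from -0.08 to 0.21. For replicates 2 and 4 the same number gave a higher r than any other number (0.213 against at most 0.123, and 0.179 against at most 0.017). For replicates 1, 3 and 5 it did not, so these values cannot decide whether the pools were paired. With the replicate block, fixed or random, 0 genes and 0 members were called. Cfb, C3ar1 and C5ar1 gave no value where the dimmest 50% of genes were left out. No detection calls were used, so which dim genes lay above background was not known.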
